A study of Mus musculus with 8 samples.

Results

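Granulocyte-monocyte progenitors (GMP) of ACKR1-deficient mice were compared with GMP of wild-type mice, on the arrays whose titles name GMP, bone marrow and the genotype. These were 4 of the 8 arrays of the series, 2 from deficient and 2 from wild-type mice. The other arrays, 2 per genotype, hold LSK cells, the compartment of stem cells and multipotent progenitors, and they are used below for the spread and for comparison. The deficient mice came from a line crossed onto C57Bl/6J for over 12 generations and bred as heterozygotes, and the wild-type mice were their littermates. All mice were female and 12 weeks old. GMP were sorted from flushed bone marrow as cells without lineage markers or Sca1 that carried cKit, CD34 and CD16/32. RNA was extracted with Trizol, amplified and labelled with Cy3 by a low-input protocol and hybridised to 1-colour Agilent arrays. The labels give no treatment, do not describe the disrupted allele and do not say whether each array holds a separate animal or a pool, so the p-values speak for the spread of these samples, which may be technical.

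ACKR1 is an atypical chemokine receptor that binds many inflammatory chemokines without activating G proteins, and in adults it is known on erythroid cells and on the endothelium of venules. GMP give rise to neutrophils and monocytes. A maturing neutrophil makes its granule proteins in waves. Primary granule proteins such as myeloperoxidase come first, in dividing precursors, and the proteins of secondary and tertiary granules, such as lactoferrin, cathelicidin and matrix metalloproteinases, come later, in cells that are normally outside the GMP gate.

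Levels are given as log2 signal relative to the 75th percentile of the array, so that 0 is the level of that percentile and 1 unit is a 2-fold step. Differences are deficient minus wild type on this scale, and levels are not compared between genes because each probe has its own response. Between 62.5% and 69.8% of the spots of a GMP array were well above background. All arrays shared 1 slide, on which column 1 held the deficient and column 2 the wild-type samples. Slide column and genotype therefore cannot be told apart. Same-numbered arrays shared a slide row, row 2 for GMP replicates 1 and row 4 for GMP replicates 2, so that each of these rows held 1 array of each genotype. Deficient GMP replicate 1 stood apart. Over all features its levels correlated with those of the wild-type arrays at 0.889 and 0.860 and with deficient replicate 2 at 0.898, while replicate 2 correlated with the wild-type arrays at 0.968 and 0.964 and the wild-type arrays with each other at 0.976. Replicate 1 differed from the wild-type mean by more than 2 log2 units for 5962 of 28078 features and replicate 2 for 775, while the wild-type arrays differed from each other by as much for 820. Values below are from the fit with replicate 1. Without it only Retnlg and Ltf were called, so every other GMP call below depends on that array. List medians and lower fold bounds of called genes are also given without it where they change sign or move by more than 1.5 times. Bounds of genes that were not called are given only with that array and can lean on it. The differences without it of called genes measured in wild type are given last. Among the LSK arrays, which lend their spread to the test, deficient replicate 2 was weak, with 34.3% of spots well above background.

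The features that rose in deficient GMP were led by genes of late neutrophil granules and of red cells. A feature is a gene symbol, or the accession or genome interval of a probe without one, and calls were made in a limma fit over all 8 arrays where the p adjusted by Benjamini-Hochberg fell under 0.05. Of 28078 features, 41 were called higher (0.146%) and 0 lower (0%). With shares this small, 0 calls on a short list of genes says little about that list. At an unadjusted p under 0.05 there were 1355 features (4.83%), 959 of them higher and 396 lower, and the lowest adjusted p on the lower side was 0.0809. The 41 differences ran from 4.41 to 11.52, with a median of 7.02, against a median of 0.16 over all features. For all 41 the deficient pair exceeded the wild-type pair, meaning that the lower deficient value was above the higher wild-type value. The calls were made on these same arrays, so that this separation was largely fixed in advance. Of all features, 20.1% showed the pattern. The 41 had a median difference of 7.55 in deficient replicate 1 and of 6.43 in replicate 2, and replicate 1 lay above replicate 2 for 33 of them.

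Within slide row 2 the 41 features had a median difference of 7.04, and within row 4 of 6.58, and each of the 41 was above 0 in both rows. This sign was fixed in advance, because the 41 were called on these arrays with the deficient pair above the wild-type pair. Over all features the medians were 0.35 and -0.08. With the slide row as a block, limma called 183 features higher (0.652%) and 10 lower (0.0356%). All 41 were among the 183, which their differences of at least 4.41 fixed in advance. That fit gave every feature the same standard error, 0.996 log2 units, so that its calls were the 193 features with a difference of at least 3.57 in size, without regard to how far a gene's own replicates lay apart. Patz1, a transcriptional regulator, is 1 of its lower calls, at 0.70 and 0.64 in wild type and at -5.72 and -0.31 in deficient GMP. Calls below are those without the block.

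**Figure D1:**
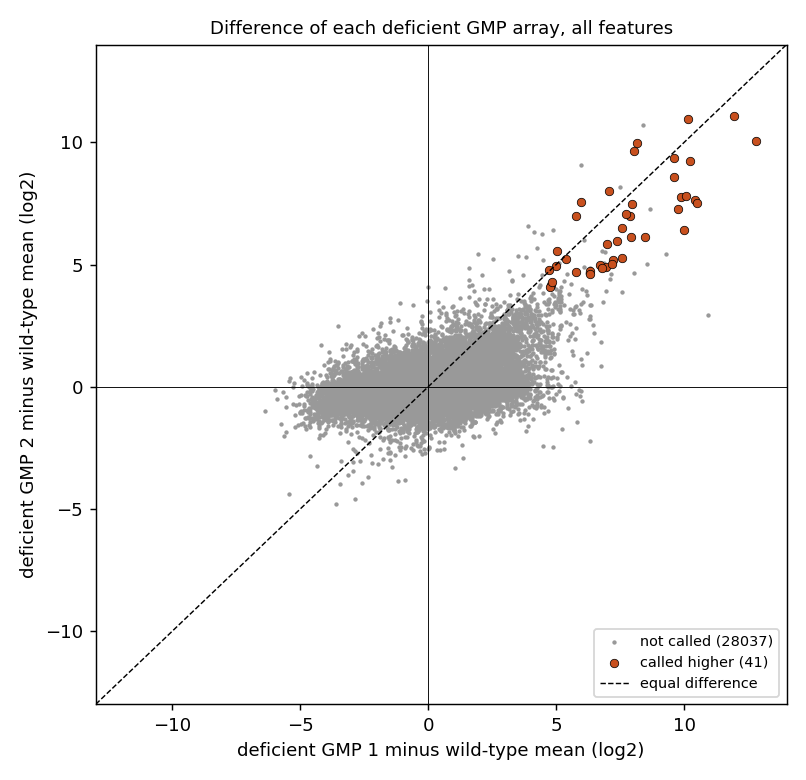
Difference of deficient GMP replicate 1 (x axis) and replicate 2 (y axis) from the mean of the wild-type GMP arrays, in log2 units, with a point for each of the 28078 features. The 41 called features (orange) lie at 4.41 to 11.52 as group differences and are high on both axes, while all features together spread more along the axis of replicate 1 (SD 1.64) than along that of replicate 2 (SD 0.80).

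Many of the called genes were dim in wild-type GMP. The probe was well above background on neither wild-type array for 22 of the 41 features, on 1 of them for 6 (among them Alas2, Hbb-b2, Ifi202b, Ngp and Rhd) and on both for 13, and on both deficient arrays for all 41. Where neither wild-type array measured the gene, only a lower bound of the fold can be given, marked by "at least". It sets the deficient mean against the dimmest signal well above background on each wild-type array, or the probe's own signal where that is higher. An adjusted p beside a bound is that of the fitted difference, which uses the listed wild-type values, and does not test the bound. For Sirpb1b, Cstdc4, Cstdc5, Pla2g7, C5ar1, Ceacam10, Fcrla and Tmod1, both wild-type values were the lowest listed on their arrays. Their wild-type SD of 0.36 is thus that of these floors. For the 6 genes measured on 1 wild-type array, the fitted difference holds a wild-type value that is not above background and that can lie at the lowest value listed on the array. With that value raised to the dimmest signal well above background, the differences fell to 8.81 for Alas2, 9.99 for Ngp and 8.32 for Rhd and stayed at 8.85 for Hbb-b2 and 9.03 for Ifi202b, whose own signal was above that limit. Without deficient replicate 1, 2 features were called (0.00712%), both with a difference above 9, and all 41 still had an unadjusted p under 0.05. Which features are called also depends on the LSK arrays, since with the 4 GMP arrays alone limma called 0 higher and 0 lower, with 1160 higher and 382 lower at an unadjusted p under 0.05.

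Genes of secondary and tertiary granules formed the largest called group. Of 22 genes on the list, 20 were measured and 8 rose, against 0.146% of all features. The list's median difference was 4.79, or 4.68 with the dim genes at their bounds, against 0.16 for all features. The deficient pair exceeded the wild-type pair for 17 of the 20, against 20.1% of all features. In deficient replicate 2 alone the median was 5.04, and within slide rows 2 and 4 it was 5.42 and 4.86.

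Retnlg, a resistin-like secreted protein of neutrophils, stood at -7.11 and -5.29 in the wild-type arrays and at 5.74 and 4.89 in the deficient arrays. The wild-type arrays did not measure it above background, so that it was at least 1826-fold higher in deficient GMP (fitted difference 11.52 ± 0.76 (SE, n = 2 per group), adjusted p = 0.00111). Camp, which encodes the antimicrobial peptide cathelicidin, was at -2.97 and -2.17 in wild type and at 10.25 and 7.48 in deficient GMP. Its difference was 11.44 ± 0.99 (adjusted p = 0.00357), and here all 4 arrays were above background. The groups were thus apart by more than the distance between replicates for both genes.

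Ltf, lactoferrin, an iron-binding protein of secondary granules, stood at -4.50 and -4.05 against 3.89 and 5.69, a difference of 9.07 ± 0.77 (adjusted p = 0.00357). Ngp, neutrophilic granule protein, above background on 1 wild-type array, stood at -6.90 and -5.17 against 4.13 and 4.94, a difference of 10.56 ± 1.10 (adjusted p = 0.00975). Both were higher in deficient replicate 2 than in replicate 1, unlike most called genes. S100a9, a subunit of calprotectin, was at -0.39 and 1.95 against 10.39 and 9.37, a difference of 9.10 ± 1.05 (adjusted p = 0.0150). Its partner subunit S100a8 was at 1.75 and 3.15 against 9.35 and 7.97, and its difference of 6.21 just missed the threshold (adjusted p = 0.0504).

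The other 3 called genes of the list were Itgb2l, an integrin beta chain of neutrophils, Chil3, a secreted chitinase-like protein, and Mmp8, the neutrophil collagenase. Itgb2l was at least 277-fold higher, and at least 133-fold without deficient replicate 1 (adjusted p = 0.0152 with it), with levels of -7.11 and -6.13 against 3.26 and 1.15. Chil3 was measured on all arrays, at 0.62 and 1.18 against 8.10 and 6.07 (difference 6.19 ± 0.80, adjusted p = 0.0241). Mmp8 was at -2.21 and -2.57 against 4.55 and 2.51 (difference 5.92 ± 0.82, adjusted p = 0.0317).

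Not all late granule genes were high. Mmp9, gelatinase, lay at -6.15 and -6.08 against -1.97 and 0.20, and Wfdc21 and Lcn2, the latter lipocalin 2, had differences of 4.34 and 2.64, none of which passed. Hp, haptoglobin, was at 6.90 and 6.83 in wild type and at 6.93 and 6.58 in deficient GMP. Pglyrp1, a peptidoglycan recognition protein, and Ltb4r1, a leukotriene receptor, had negative differences of -1.22 and -0.92. The differences within this list therefore ran from -1.22 to 11.52. The summed signal of the list, in multiples of the 75th percentile, was 199 and 204 in wild type and 4383 and 1519 in deficient GMP, and 15 and 16 of its 20 genes were above background in wild type against all 20 in each deficient array. Such mature neutrophil transcripts can come from more cells of a type or from more RNA per cell, which cannot be told apart in sorted bulk RNA, and the part of other cells in the sort was not tested.

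**Figure D2:**
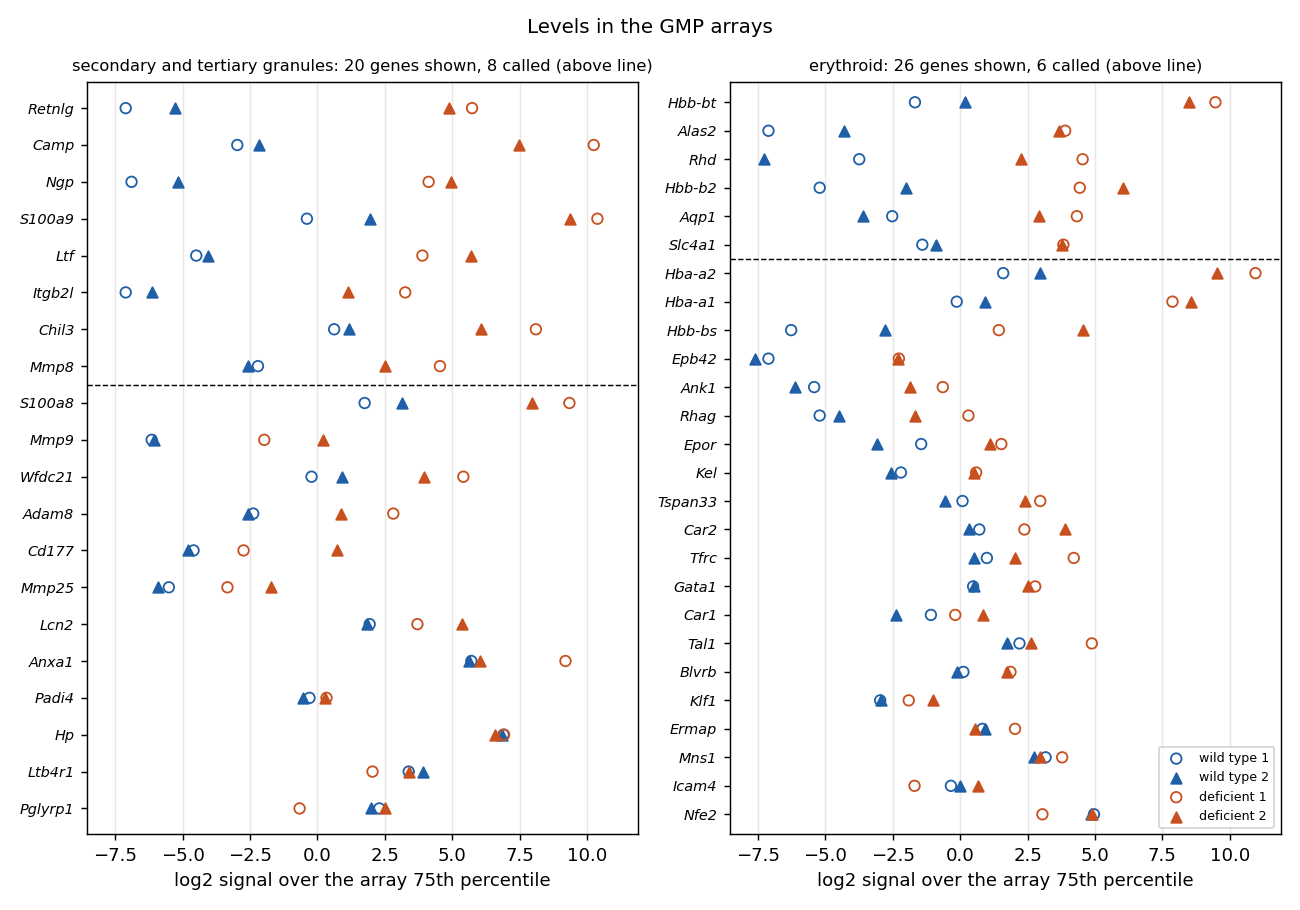
Level in log2 units, relative to the array's 75th percentile (x axis), for the measured genes of the late granule list (left) and the erythroid list (right, without 2 that are not reported here) in the 4 GMP arrays, wild type in blue and deficient in orange, replicate 1 as open circles and replicate 2 as triangles. Called genes stand above the dashed lines; Camp lies at -2.97 and -2.17 in wild type and at 10.25 and 7.48 in deficient GMP.

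Because these genes rose together, the sequence before the start of the 3 with the largest differences is shown. These are the 150 bases next to the annotated start, read 5′ to 3′ on the strand of the gene, from the RefSeq annotation of GRCm38.p6. Of the 35 called genes with a symbol, 29 had an entry there. Capitals mark matches on either strand to AGATAA or TGATAA (letters bound by GATA factors), CACCC (bound by KLF factors), TTNNGNAA (C/EBP factors) and GAGGAA (PU.1). CACCC and the others were searched separately and can overlap.
Retnlg (chr16:48872458-48872607, plus strand): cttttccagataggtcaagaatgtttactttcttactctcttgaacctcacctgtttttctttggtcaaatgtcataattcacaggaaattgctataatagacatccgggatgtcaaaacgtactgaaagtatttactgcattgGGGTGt
Camp (chr9:109849457-109849606, minus strand): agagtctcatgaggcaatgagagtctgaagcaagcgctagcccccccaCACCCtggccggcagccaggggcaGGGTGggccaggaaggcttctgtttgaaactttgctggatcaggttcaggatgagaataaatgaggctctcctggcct
Ngp (chr9:110419658-110419807, plus strand): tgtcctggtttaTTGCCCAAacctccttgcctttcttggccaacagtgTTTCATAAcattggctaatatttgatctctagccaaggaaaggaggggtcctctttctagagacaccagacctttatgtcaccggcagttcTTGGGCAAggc
Ngp held TTNNGNAA at 3 places and the other genes of this set at none, while CACCC was found in Retnlg at 1 place and in Camp at 2. For scale, 22.7% of the 32851 promoter windows of the same length held TTNNGNAA, 37.4% held CACCC and 14.5% held GAGGAA. A match is a description of letters, and binding was not measured here.

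Of 26 measured surface receptors of mature neutrophils, 4 rose, against 0.146% of all features. The median difference was 1.60, or 1.03 without deficient replicate 1. The deficient pair exceeded the wild-type pair for 16 of the 26, against 20.1% of all features. Sirpb1b, a signal-regulatory protein, was listed at -7.11 and -7.62 in wild type, not above background, and at 3.14 and 0.13 in deficient GMP, at least 187-fold higher (adjusted p = 0.0173), or at least 65.9-fold without deficient replicate 1. Fpr2, a receptor for formylated peptides, was at -5.79 and -7.62 against 1.25 and 0.79, at least 122-fold higher (adjusted p = 0.0314). C5ar1, the receptor for complement C5a, was at least 20.7-fold higher (adjusted p = 0.0390), or 10.67-fold without that array. Ceacam10, of the carcinoembryonic antigen family, was at least 14.2-fold higher (adjusted p = 0.0355).

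Fpr1, a further formyl peptide receptor, was at -3.20 and -2.63 against 1.82 and 0.70, a difference of 4.17 that did not pass (adjusted p = 0.0600). Cxcr2, the chemokine receptor with which mature neutrophils leave the marrow, was at -1.31 and -1.48 against 0.57 and 0.53 (difference 1.94, adjusted p = 0.759). Other receptors of the list had negative differences without a call. Itgam, the CD11b chain, had a difference of -0.95, Selplg, the selectin ligand, of -0.98, and Cd14, a co-receptor for endotoxin, of -1.81.

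Red cell genes were the other large group. Of 30 on the erythroid list, 28 were measured and 7 rose, against 0.146% of all features. The list's median difference was 3.87 (3.60 with dim genes at their bounds). The deficient pair exceeded the wild-type pair for 24 of the 28, against 20.1% of all features. The median was 3.37 in deficient replicate 2 alone and 3.95 and 3.88 within slide rows 2 and 4. The summed signal was at most 60.7 in the wild-type arrays and was 3137 and 1693 in the deficient arrays.

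Hbb-bt, an adult beta-globin gene, stood at -1.68 and 0.19 in wild type and at 9.47 and 8.48 in deficient GMP (difference 9.72 ± 0.78, adjusted p = 0.00357). Hbb-b2, another beta-globin gene, above background on 1 wild-type array, was at -5.21 and -2.02 against 4.44 and 6.03 (difference 8.85 ± 1.19, adjusted p = 0.0306). Globin genes are near-identical copies, and a probe of one can read the others. The alpha-globin genes Hba-a2 and Hba-a1 had differences of 7.97 and 7.83 and Hbb-bs, a further beta-globin gene, of 7.52, with SE from 1.45 to 1.62 and no call.

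Alas2, the erythroid enzyme of the first step of haem synthesis, was listed at -7.11, the lowest value of the array, and at -4.33 in wild type, above background on the second only, and at 3.89 and 3.66 in deficient GMP (difference 9.50 ± 0.97, adjusted p = 0.00975). Rhd, a blood group protein of the red cell membrane, above background on 1 wild-type array, was at -3.75 and -7.29 against 4.54 and 2.27 (difference 8.92 ± 1.23, adjusted p = 0.0317). Slc4a1, the anion exchanger band 3, was at -1.41 and -0.91 against 3.83 and 3.76 (difference 4.95 ± 0.62, adjusted p = 0.0207). For Slc4a1 the deficient replicates were closer to each other than the wild-type replicates were.

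Aqp1, a water channel, was at -2.52 and -3.59 against 4.33 and 2.92 (difference 6.68 ± 0.77, adjusted p = 0.0150). Ank1, ankyrin, a protein of the membrane skeleton, was at -5.42 and -6.11 against -0.65 and -1.87, at least 22.5-fold higher without passing (adjusted p = 0.0584).

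Other erythroid genes did not pass. Gata1, the lineage factor, was at 0.48 and 0.51 against 2.78 and 2.53 (difference 2.16, adjusted p = 0.648). Klf1, an activator of globin genes, had a difference of 1.51, and Epor, the erythropoietin receptor, had a difference of 3.58 (adjusted p = 0.267). Tfrc, the transferrin receptor, had 2.36 and Nfe2, a transcription factor, -0.94, the lowest of the list.

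Of 12 genes of haem biosynthesis 1, Alas2, rose, against 0.146% of all features, and the median was 0.41, or 0.25 without deficient replicate 1. Alas1, the housekeeping form of the enzyme, was at 7.49 and 7.33 against 6.60 and 6.53 (difference -0.84), and Ppox, a late enzyme of the pathway, was at 1.84 and 1.71 against -1.96 and 0.35 (difference -2.58, adjusted p = 0.673). Fech, which inserts the iron, had a difference of 1.85.

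The windows before the starts of the 3 erythroid genes with the largest differences are shown by the same rule.
Hbb-bt (chr7:103813924-103814073, minus strand): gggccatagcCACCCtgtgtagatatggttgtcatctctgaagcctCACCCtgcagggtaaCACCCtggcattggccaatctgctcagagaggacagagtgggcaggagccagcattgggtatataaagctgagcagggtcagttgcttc
Alas2 (chrX:150547267-150547416, plus strand): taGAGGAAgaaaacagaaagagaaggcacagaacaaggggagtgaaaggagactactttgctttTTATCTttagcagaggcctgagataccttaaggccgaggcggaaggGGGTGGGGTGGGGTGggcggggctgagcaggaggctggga
Rhd (chr4:134864386-134864535, plus strand): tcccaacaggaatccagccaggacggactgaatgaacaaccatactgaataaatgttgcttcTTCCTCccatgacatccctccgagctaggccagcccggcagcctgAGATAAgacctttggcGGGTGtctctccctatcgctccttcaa
AGATAA was found in Alas2 and Rhd at 1 place each and in 5.65% of all windows, and TGATAA, held by 4.45% of all windows, in none of the 3. All 3 held CACCC, at 3 places each in Hbb-bt and Alas2 and at 1 in Rhd. GAGGAA was found in Alas2 and Rhd at 1 place each.

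Lymphoid genes that rose were few. Of 15 measured B lineage genes, 2 rose, against 0.146% of all features, and the median difference was 2.48. Ms4a1, which encodes CD20 of mature B cells, was at -6.66 and -7.62 in wild type, not above background, and at 0.04 and -2.12 in deficient GMP, at least 29.2-fold higher (adjusted p = 0.0355), or 13.8-fold without deficient replicate 1. Fcrla, an Fc receptor-like protein of B cells, was at least 8.66-fold higher (adjusted p = 0.0427 for the fitted difference, 4.57). Pou2af1, a B cell coactivator, was at -6.40 and -6.37 against 1.67 and -1.74, at least 58.8-fold higher without passing (adjusted p = 0.0571).

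Other B lineage genes did not lie that way. Cd79a, a chain of the B cell receptor complex, was at -1.99 and -1.38 against -1.89 and -1.27, and Cd79b and Cd22 had differences of -0.91 and -1.07. Jchain, which joins immunoglobulin chains in plasma cells and is on no list used here, was at -5.53 and -5.77 against 1.32 and 0.18, at least 84.4-fold higher (adjusted p = 0.0317). Of 16 T and NK cell genes 0 were called, with a median of 0.83. Il7r, the interleukin-7 receptor, was at -7.11 and -7.62 against -2.17 and -3.92, at least 7.30-fold higher (adjusted p = 0.0868).

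Megakaryocyte and platelet genes had a median difference of 1.63 over 18 measured, with 0 called. For 12 of the 18 the deficient pair exceeded the wild-type pair, against 20.1% of all features. Pf4, platelet factor 4, was at -0.53 and -0.60 against 4.13 and 2.41 (difference 3.84, adjusted p = 0.207). Ppbp, a platelet chemokine precursor, was at -7.11 and -7.23 in wild type and at 3.76 and -4.24 in deficient GMP, so that only replicate 1 was high (adjusted p = 0.616). Itga2b, the CD41 chain, was at -3.42 and -0.53 against -3.84 and 0.62, overlapping. Stem cell genes had a median of 0.94 over 24 measured with 0 called, among them Angpt1, a ligand of the Tie2 receptor, at 0.34 and 0.80 against 5.58 and 2.62, and Hlf, a stem cell transcription factor, at -0.42 and -0.27 against -0.41 and 0.28.

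Of the 41 called features, 22 are on a list, 13 have a symbol but are on none, and 6 have no symbol here. Those 13 include proteins of neutrophils, such as the cystatins Cstdc4 and Cstdc5, whose probes may not tell these related genes apart, the chitinase-like Chil1 and the kinase Fgr. Cstdc4 was at -7.11 and -7.62 against 2.41 and -0.08, at least 135-fold higher (adjusted p = 0.00975), or 57.0-fold without deficient replicate 1. Chil1 was at -7.11 and -6.02 against -0.59 and 0.97, at least 67.2-fold higher (adjusted p = 0.0241), or 116-fold without that array. Fgr, an Src-family kinase, was at least 31.9-fold higher (adjusted p = 0.0336).

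Tmod1, a tropomodulin of the red cell membrane skeleton, was at least 7.76-fold higher. Its wild-type values were the lowest of their arrays, and the adjusted p of 0.0427 is that of the fitted difference, 4.41. Itln1, intelectin 1, a lectin that binds microbial sugars, was at least 130-fold higher by its brighter probe (adjusted p = 0.00975). The other probe of Itln1 was at -7.11 and -7.01 against -0.23 and -1.66, a difference of 6.12. Pla2g7, an enzyme that degrades platelet-activating factor, was at least 47.4-fold higher by its brighter probe (adjusted p = 0.0150), or 25.3-fold without deficient replicate 1. The other probe of Pla2g7, at -6.08 and -6.74 against -3.38 and -3.70, had a smaller difference of 2.87. St3gal5, the sialyltransferase that makes ganglioside GM3, was measured on all arrays, at -2.61 and -3.06 against 3.50 and 1.88 (adjusted p = 0.0241). Tent5c, a poly(A) polymerase, was at -1.38 and -1.65 against 4.81 and 3.09 (adjusted p = 0.0314). Others were Ccdc92b, a coiled-coil protein, at least 28.5-fold higher, and AA467197, at least 158-fold higher, or 15.6-fold and 70.2-fold without deficient replicate 1.

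Ackr1 itself was at -0.50 and -0.45 in wild type and at -0.07 and -0.16 in deficient GMP, a difference of 0.36 ± 0.61 (adjusted p = 1.00). The labels do not place the deleted part, and a probe outside it does not check the genotype. The genes around Ackr1 on chromosome 1 were examined in RefSeq order. Of the 30 protein-coding genes on each side, 37 were measured and 1 was called, against 0.146% of all features. Their median difference was 0.15, against 0.16 for all features. That gene was Ifi202b, an interferon-inducible member of the Ifi200 family, the 13th from Ackr1. It was at -5.50 and -5.00 in wild type, above background on 1 of these arrays, and at 5.17 and 2.39 in deficient GMP (difference 9.03 ± 1.00, adjusted p = 0.0132), and without deficient replicate 1 the difference was 7.64 (adjusted p = 0.159).

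Other genes of the Ifi200 family did not pass. Aim2, a sensor of cytosolic DNA, was at -1.02 and -1.58 against 3.37 and 0.14 (difference 3.05, adjusted p = 0.944). Mndal and Ifi204 had differences of 0.87 and 0.85, and Ifi209 of 0.15. Ifi211 was at 0.91 and 0.94 against 0.02 and -2.90, a difference of -2.36. Fcer1a, the IgE receptor chain, is the 3rd gene on the other side of Ackr1, with a difference of 4.32 (adjusted p = 0.316). Dusp23, a phosphatase, had the lowest difference of these neighbours, -2.76.

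The genes by which GMP are sorted and known were measured in both groups. All 6 sort-gate genes were above background on all 4 arrays and 0 were called. Kit was at 4.26 and 3.88 in wild type and at 3.49 and 3.41 in deficient GMP. Cd34 was at 6.79 and 6.39 against 7.85 and 6.61. Fcgr3, which encodes CD16, was at 2.16 and 3.41 against -0.76 and 2.20 (difference -2.06, adjusted p = 0.955), and Fcgr2b, CD32, at 3.41 and 2.62 against 1.72 and 1.77 (difference -1.26). The median of the 6 was -0.94, and -0.62 without deficient replicate 1. Both deficient arrays lay below both wild-type arrays for 3 of the 6, against 19.5% of all features, and above them for 0. Ly6a, which encodes the excluded antigen Sca1, was at 2.83 and 3.11 in wild type and at -0.17 and 2.24 in deficient GMP.

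Of 12 measured primary granule genes 0 were called. The median was -0.18, or -0.31 without deficient replicate 1. The deficient pair exceeded the wild-type pair for 0 of the 12, against 20.1% of all features. Both deficient arrays lay below both wild-type arrays for 5 of the 12, against 19.5% of all features. Mpo, myeloperoxidase, was at 9.77 and 9.43 against 10.20 and 9.73, and Ctsg, cathepsin G, at 9.33 and 9.11 against 10.34 and 9.04, overlapping for both. Elane, neutrophil elastase, was at 8.86 and 8.32 against 6.18 and 6.99, without overlap and without a call (adjusted p = 0.905). Prtn3, proteinase 3, was at 5.98 and 7.42 against 2.06 and 6.53, so that its difference of -2.41 rested on deficient replicate 1 and was -0.17 without it.

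The transcription factors and receptors of the granulocyte-monocyte programme gave 0 calls over 22 measured and a median of -0.24, or -0.42 without replicate 1. Both deficient arrays lay below both wild-type arrays for 10 of the 22, against 19.5% of all features, and above them for 0. Cebpe, the factor of the secondary granule genes, was at 5.04 and 4.70 against 4.95 and 4.46. Spi1, PU.1, was at -0.51 and 0.81 in wild type and at -5.84 and 0.01 in deficient GMP, and the low value is not above background. Irf8, a factor of the monocyte branch, was at 7.07 and 6.58 against 4.11 and 5.99 (difference -1.78), and Cebpa at 2.47 and 3.09 against -0.08 and 2.30 (difference -1.67). Myb, a factor of dividing progenitors, was at 6.58 and 6.04 against 9.16 and 5.91. Csf1r, the macrophage colony-stimulating factor receptor, and Csf3r, that of the granulocyte factor, had differences of -0.68 and 0.16.

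**Figure D3:**
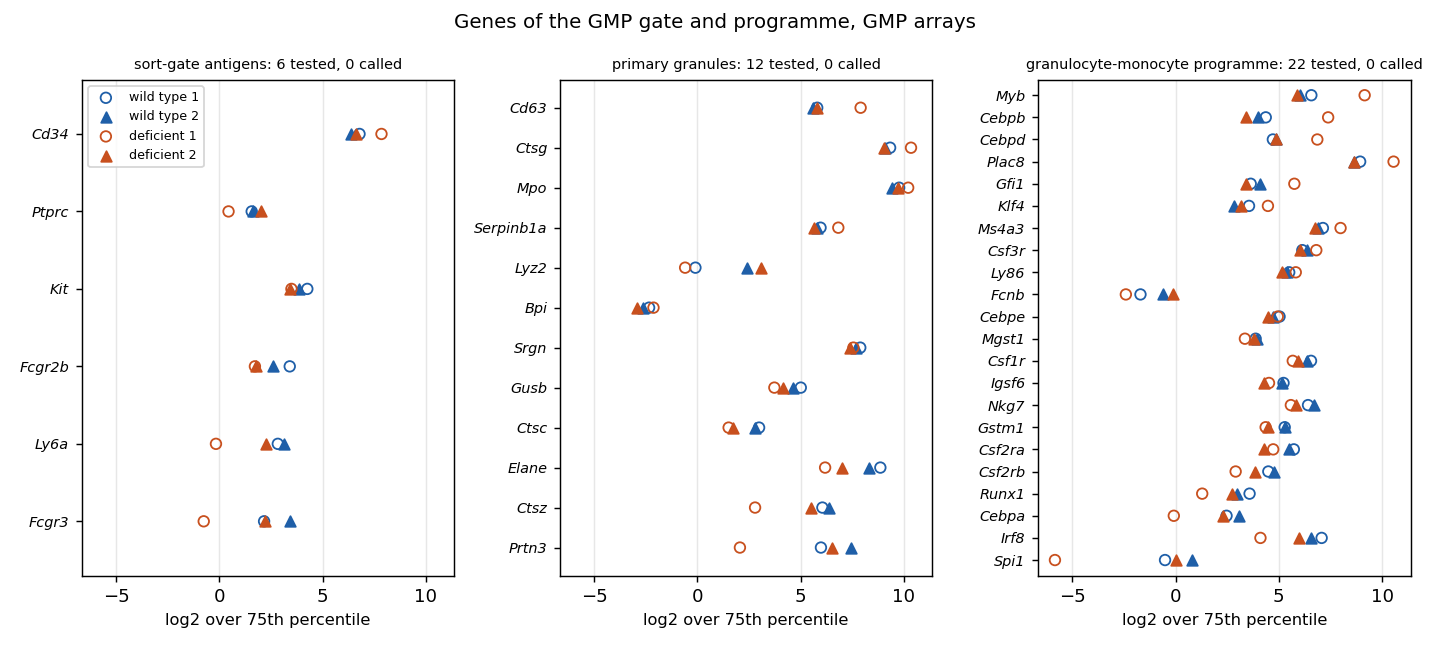
Level in log2 units, relative to the array's 75th percentile (x axis), for the sort-gate genes (left), primary granule genes (middle) and granulocyte-monocyte programme (right) in the wild-type (blue) and deficient (orange) GMP arrays, replicate 1 as open circles and replicate 2 as triangles. None of the 6, 12 and 22 genes was called; the widest gaps between replicates are those of deficient replicate 1, as for Spi1 at -5.84 against 0.01 in replicate 2.

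On the lower side 0 features passed. The 3 smallest p there belonged to features without a gene symbol, with adjusted p of 0.0809, 0.228 and 0.292, and the first was not above background on the deficient arrays. Of genes with a symbol, Hgfac, a serine protease that activates hepatocyte growth factor, and Dusp23 had the smallest p. Hgfac was at 1.84 and 0.79 in wild type and at -2.97 and -0.80 in deficient GMP (difference -3.20, adjusted p = 0.431). Dusp23 was at 1.78 and 1.00 against -1.57 and -1.17 (difference -2.76, adjusted p = 0.467). Fam20c, a kinase of secreted proteins, was at 0.23 and 1.00 against -5.05 and -1.41, above background on 1 deficient array (difference -3.84, adjusted p = 0.647). Ppox, named above, is also among them. Both deficient arrays lay below both wild-type arrays for 5469 features (19.5%), without a call. Among the genes with wide gaps of this kind was Wdr72, a WD-repeat protein, at -2.49 and -1.86 in wild type and, not above background, at -5.80 and -6.98 in deficient GMP, at least 7.83-fold lower (adjusted p = 0.955). Krtap5-4, a keratin-associated protein, was at -0.42 and -0.30 against -3.25 and -4.96, with 1 deficient array above background (adjusted p = 0.955).

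Glycolysis had a median of -1.15 over 15 genes with 0 called, the lowest of the 27 lists with deficient replicate 1 but not without it, where it was -0.50 beside -0.62 for the sort-gate genes. Both deficient arrays lay below both wild-type arrays for 10 of the 15, against 19.5% of all features. Gapdh was at 9.04 and 8.74 against 7.09 and 8.39, and Pkm, pyruvate kinase, at 6.54 and 6.41 against 3.35 and 6.03, with deficient replicate 1 the lower in each. Ldha, lactate dehydrogenase, was at 7.86 and 7.91 against 9.85 and 7.97 by its brightest probe. Its other probes, also above background on all 4 arrays, had differences of -0.27 and -1.25. Genes of division and growth lay near the median of all features, at -0.03 for mitosis (19 measured), 0.42 for DNA replication (21), 0.43 for cytosolic ribosomal proteins (33) and 0.15 for the respiratory chain (34), with 0 called in each. Without deficient replicate 1 these medians were -0.08, -0.09, 0.05 and -0.15. Mki67, a proliferation marker, was at 6.16 and 5.74 against 6.78 and 6.13.

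**Figure D4:**
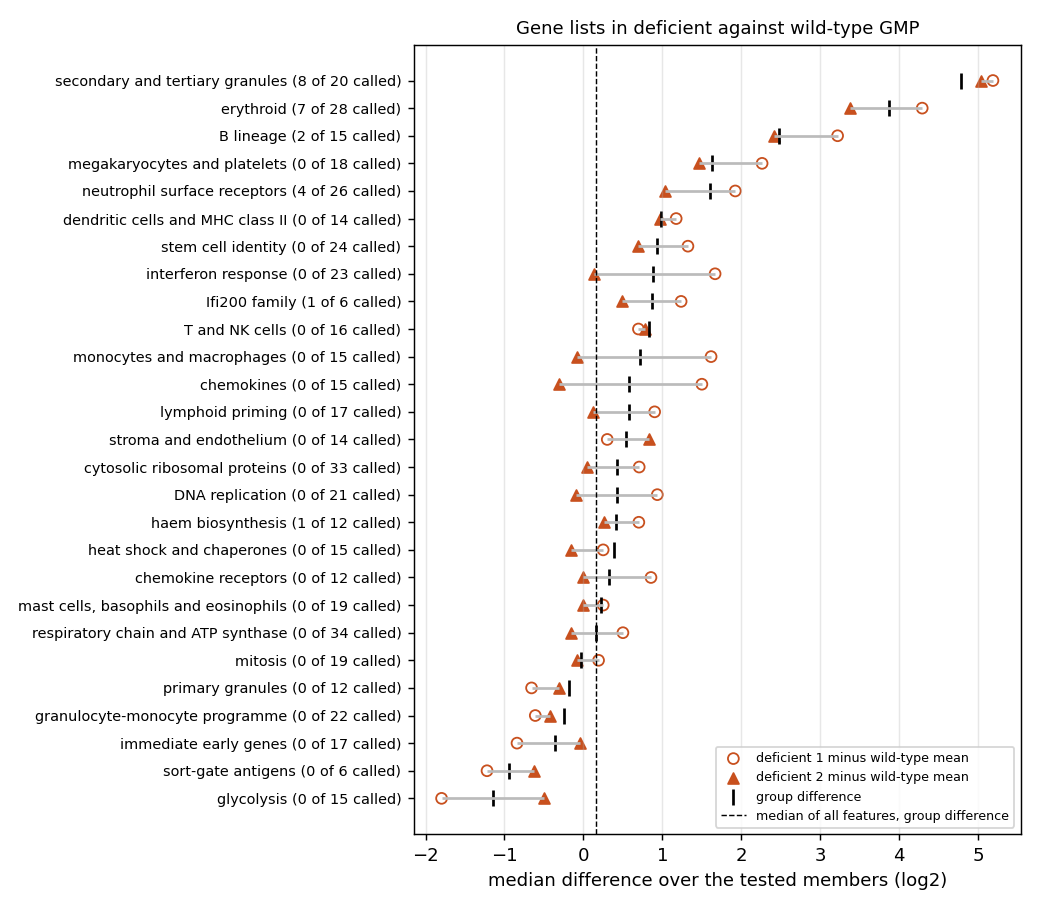
Median difference from wild-type GMP over the measured genes of each of the 27 lists (x axis, log2), for deficient replicate 1 (open circles), replicate 2 (triangles) and the group difference (black ticks), with the median of all features (0.16) as a dashed line. The late granule list lies at 5.19 and 5.04 and the erythroid list at 4.29 and 3.37 in replicates 1 and 2, and glycolysis at -1.80 and -0.50.

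Interferon-induced genes gave 0 calls over 23 measured and a median of 0.88, which was 1.67 in deficient replicate 1 and 0.13 in replicate 2. Rsad2, viperin, an antiviral enzyme, was at -3.65 and -2.79 against 2.07 and 1.12 (difference 4.81, adjusted p = 0.0600). Isg15, a ubiquitin-like protein, was at 0.77 and 1.43 against 3.54 and 2.25 (difference 1.80). Rsad2 had the highest difference of the list in each deficient array.

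Chemokine receptors and chemokines, the field in which ACKR1 acts, gave 0 calls over 12 and 15 measured genes. Besides Cxcr2, the receptors ranged from -0.34 to 1.72. Cxcr4, which holds progenitors in the marrow, was at 2.24 and 1.51 against 2.61 and 1.78, and Ccr2, the monocyte receptor, at 2.43 and 1.83 against 4.78 and 1.97. Cxcl12, the ligand of CXCR4 made by stroma, was at -7.11 and -5.61 against -0.58 and -3.07 by its brighter probe. That is at least 14.4-fold higher with deficient replicate 1 (adjusted p = 0.350). The other probe of Cxcl12 was at -5.40 and -5.25 against -2.77 and -3.95, a difference of 1.96. Cxcl2, a neutrophil attractant, had the lowest difference of the chemokines, -2.54 (adjusted p = 0.786).

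Markers of other cells were counted beside these results. Stroma and endothelium gave 0 calls over 14 measured genes (median 0.53, or 0.83 without deficient replicate 1), monocytes and macrophages 0 over 15 (median 0.72, or -0.08 without it), dendritic cells and MHC class II 0 over 14 (median 0.98) and mast cells, basophils and eosinophils 0 over 19 (median 0.22, or -0.0035 without it). The summed signal of the B lineage list was at most 23.9 on any GMP array, and that of the megakaryocyte list 21.5 and 18.3 against 134 and 31.3. The part of such cells in the results was not tested.

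The same comparison in LSK, with its own wild-type and deficient arrays, called 67 features (0.239%), and 28 of the 41 GMP features were among them. The LSK difference of the 41 ran from -1.81 to 11.08 with a median of 5.98, and was above 0 for 40. The dimmest signal well above background on the weak deficient LSK replicate 2 was -1.44, against -5.17 and -6.69 in wild-type LSK. A gene dim in both genotypes can therefore lie higher on that array. Ceacam10 and Pla2g7, among the 28, were at -2.93 and -1.79 there, below that limit. So were Ifi202b, Ccdc92b, Tmod1 and Fcrla, which were not called in LSK. The late granule list had a median of 6.42 in LSK and 4.79 in GMP, and the erythroid list 4.24 and 3.87. In deficient LSK replicate 1 alone these lists had medians of 7.10 and 4.52. Retnlg stood at -5.45 and -5.27 in wild-type and at 5.18 and 5.32 in deficient LSK, a difference of 10.61 beside 11.52 in GMP. The GMP and LSK arrays hold separately sorted cells, but the labels do not say whether these came from the same mice. The arrays also share the slide, its columns and the estimate of the spread.

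**Figure D5:**
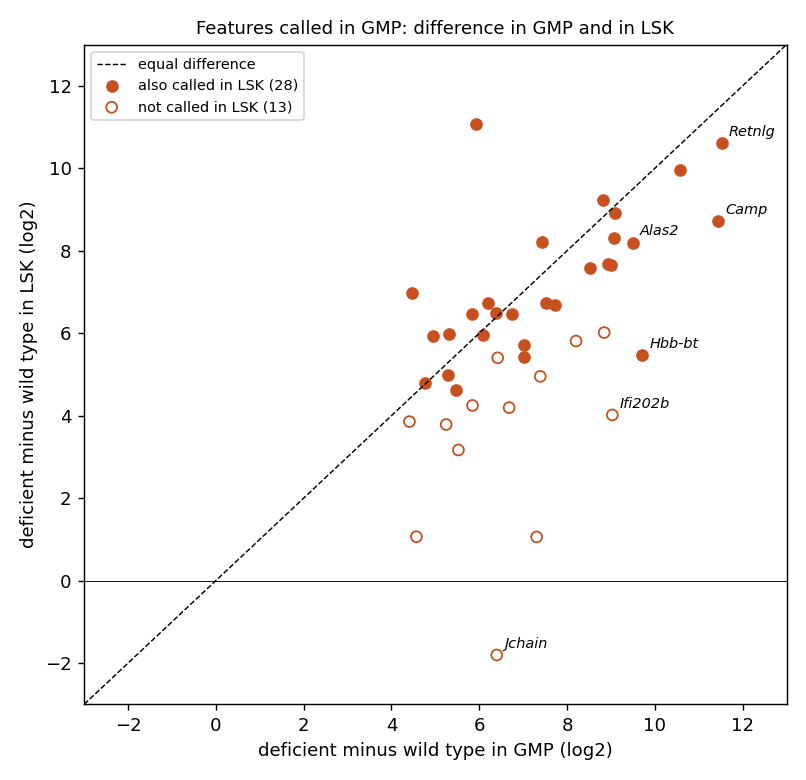
Deficient minus wild type in GMP (x axis) and in LSK (y axis), in log2 units, for the 41 features called in GMP, filled where also called in LSK (28) and open where not (13). In LSK 40 of the 41 lie above 0, and Jchain lies at -1.81. The LSK differences include the weak deficient LSK replicate 2, whose dimmest signal well above background was -1.44.

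The difference between the GMP and the LSK comparison was tested for each feature, and 0 passed (0%). The fit with the slide row as a block and its single standard error called 14 (0.0499%). Without the block, 695 features had an unadjusted p under 0.05, and the lowest adjusted p was 0.632. The smallest p belonged to Jchain, at 6.40 in GMP and -1.81 in LSK, where it stood at 3.92 and 4.84 in wild type and at 3.80 and 1.34 in deficient cells. Among the features with the next smallest p, Hp had differences of -0.11 in GMP and 6.12 in LSK, C3, complement component 3, of -0.13 and 5.48, and Cebpe of -0.16 and 4.94. In the other direction, Pdzk1ip1 was at -1.48 and -1.46 against 2.67 and 2.14 in GMP (difference 3.88, adjusted p = 0.0584) and had -1.03 in LSK. Wfdc17 had 3.45 in GMP and -1.96 in LSK.

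The deficient GMP arrays differed from each other by more than 2 units for 5113 features. Among the genes far higher in replicate 1 were Ppbp, given above, and Zfp711, a zinc finger protein, at -0.45 in replicate 1, -6.51 in replicate 2 and -6.81 and -5.62 in wild type. Among those far higher in replicate 2, and there close to wild type, were Spi1, Patz1, at -5.72 in replicate 1 against -0.31, and Cenpm, a centromere protein, at -5.15 against 0.26. The difference of replicate 1 from the wild-type mean had an SD of 1.64 over all features and that of replicate 2 of 0.80.

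Without deficient replicate 1, the only called features were Retnlg, with a difference of 11.10 (adjusted p = 0.0294), and Ltf, with 9.96 (adjusted p = 0.0294). The lone remaining deficient array was then taken to vary like the other groups. Camp had 10.06 (adjusted p = 0.0607) and Hbb-bt 9.22 (adjusted p = 0.0721). Ngp had 10.97 and Ifi202b 7.64 (both adjusted p = 0.159), and Alas2 had 9.38 (adjusted p = 0.162). Of the other granule genes, S100a9 had 8.59, Chil3 5.17 and Mmp8 4.90, and of the other erythroid genes Hbb-b2 had 9.64, Rhd 7.79, Aqp1 5.97 and Slc4a1 4.92, with adjusted p from 0.191 to 0.480. St3gal5 had 4.72 and Tent5c 4.61. Over the 41 features the differences ran from 4.07 to 11.10 without that array and moved by at most 1.78 log2 units.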

How the data were processed

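Per the file headers, Agilent Feature Extraction 10.7.3.1 read the arrays, and its processed signal is a linear intensity already corrected for background. The table of log2 values deposited by the authors matched that signal after 75th-percentile scaling and centring of every probe on its median (r from 0.999687 to 0.999965), so scale, centring and direction are known. Medians of its GMP columns were -0.13 and -0.14 in wild type and 0.32 and -0.11 in deficient cells. For any other step of the authors, the processing is not given in the sources used here.

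Levels are log2 processed signal minus the 75th percentile of 59305 non-control spots per array. Outlier spots (104 to 139 per array) were left out and 0 were saturated. Probes (39098 of 55681) passed if both arrays of any group measured them well above background, and a feature was read from its brightest probe. Probe accessions were named through the RefSeq table of GRCm38.p6, and 15852 of the 28078 features have a symbol.

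The limma fit (version 3.58.1, R 4.3.3) used 4 group means with 4 residual and 5.76 prior degrees of freedom and was tested on simulated data. Alternatives were leaving out arrays, other normalizations, filters and probe rules, array weights, the authors' values and a block. The normexp alternative used median signals, since the files hold no mean signal. Python 3.11.15 and matplotlib 3.10.9 drew the figures.

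The comparison and the 27 lists were chosen with earlier results of these data known. Named are Ackr1, the 20 called genes that differed most, the 8 lowest p-values among lower genes, called list members, the first 4 of each list, and genes with the widest gaps between groups, between populations or between the deficient arrays. Further list members were named after their values were seen. Some genes of the lists are counted but not reported here by name.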

Additional observations from a re-analysis of the deposited data

How the results depend on the processing

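All 41 features called higher kept their direction in each of 20 alternatives, and none was called in all 20. All 41 were called with the filter set within GMP, and 40 with the mean of a gene's probes. With the block all 41 were called too, which the size of their differences fixed in advance. Retnlg was called in 18 of the 20, Ltf in 17, Hbb-bt in 16 and Camp in 15, and Fcrla and Tmod1 in 4. The count of features called higher ran from 2 to 36 over the fits that left out 1 array. It was 2 without deficient GMP replicate 1, 12 without wild-type GMP replicate 2, 20 without wild-type replicate 1, 22 without either deficient LSK array and 36 without deficient GMP replicate 2, of which 19 were shared with the 41. In these fits the lone array of a group is taken to vary like the others. It was 1 without both arrays that stood apart, 0 with the GMP arrays alone, 2 with quantile normalization, 1 with median scaling, 9 without the filter on dim probes and 74 with array weights, which gave wild-type GMP 3.98 and deficient GMP 0.562. With the filter set within GMP it was 47, with the mean of a gene's probes 45, 37 with the authors' values, with normexp 35 and with trend and robust moderation 39. The count called lower was 0 except for 1 with normexp and 1 with array weights, block fits aside. The cause of these moves was not tested.

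Scaling to the median moved the median difference of all features from 0.159 to -0.133. It left the late granule list at 4.49 and the erythroid list at 3.58. The medians of the ribosomal, respiratory chain and mast cell lists changed sign under at least 1 alternative, as did those of the monocyte, DNA replication, chaperone, chemokine and mitosis lists.

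With the replicate number, which is also the slide row, as a block, 183 features were called higher, 10 lower and 14 in the difference between GMP and LSK. That fit has 2 residual degrees of freedom and 1 standard error for all features, so its calls rank the differences by size alone. The deviations of same-numbered arrays correlated at 0.262 in GMP and -0.344 in LSK. With the LSK numbers crossed against the rows, chosen after seeing the data, the replicate block gave 202, 3 and 2. Precision is limited by 2 arrays per group and by the probes at the lowest listed value, 334 and 358 features in the wild-type GMP arrays, whose differences depend on that floor.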
